A study of Bubalus bubalis with 6 samples.

Results

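The genes described here are 10 genes through which muscle stores, buffers and programmes its energy supply: the creatine kinase genes CKM, CKB and CKMT2, the adenine nucleotide enzymes AK1, AMPD1 and ADSSL1, the oxygen and fatty acid carriers MB and FABP3, and the coactivators PPARGC1A and PPARGC1B. They were chosen by gene symbol from the deposited gene table, and all 10 are listed there among 24616 genes. Primary muscle stem cells (MuSCs) of water buffalo, isolated from fetal longissimus muscle, were sequenced in proliferation (GM samples, n = 3) in growth medium with fetal bovine serum. They were also sequenced in differentiation (DM samples, n = 3), after near-confluent cells were switched to medium with little horse serum. No genotype, transgene or drug separates the groups, and the labels name no animal, strain or day, so whether the 3 samples of a group came from separate animals or cultures is not known and p-values measure the spread between these samples only. The cells are a primary culture obtained by collagenase and trypsin digestion.

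Muscle contraction consumes ATP faster than it can be made by mitochondria alone, and creatine kinases bridge the gap by moving phosphate between phosphocreatine and ADP. CKM is the muscle cytosolic isoenzyme, CKB the brain-type cytosolic isoenzyme of many other cells and of myoblasts, and CKMT2 the sarcomeric mitochondrial isoenzyme. Adenylate kinase, AMP deaminase and adenylosuccinate synthase interconvert the adenine nucleotides that build up during work, myoglobin binds oxygen inside the fibre, and the coactivators of the PGC-1 family switch on mitochondrial genes.

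Each sample held between 35615864 and 40305237 counts assigned to genes. The 10 genes together took between 0.0267 and 0.0291% of these in GM and between 0.0432 and 0.0464% in DM samples. Of 7 skeletal muscle markers, all present in every sample, MYOG, MYF6 and ACTA1 were called higher, by 1.66, 3.97 and 3.14 on the log2 scale. MYF5, a factor of proliferating myoblasts, fell by 2.70, and MYOD1 (0.90), PAX7 (-0.92) and DES (-0.15) were not called. MYOD1 and PAX7 missed only the fold threshold and their GM and DM samples did not overlap, while those of DES did. Levels are given as CPM, counts scaled to a common library size after TMM normalization. The summed level of 17 contractile genes was 1762, 1247 and 1825 CPM in GM replicates 1, 2 and 3, against 9467, 9645 and 13433 CPM in DM replicates 1, 2 and 3. GM replicate 2 therefore had the lowest and DM replicate 3 the highest contractile level. All 4 fibroblast markers were also abundant, with sums of 16446 to 16597 CPM per GM sample and 45381 to 51825 CPM per DM sample, most of it from COL1A1, and COL1A1, THY1 and DCN were called higher. Of 6 cardiac markers, NPPB and MYL7 had no count in any sample and NPPA, like NKX2-5 in each sample, had at most 1 count. MYH6, a near copy of the muscle gene MYH7, rose by 3.64 on the log2 scale. Whether the counting divided reads between MYH6 and MYH7 was not tested. TNNI3 rose from at most 5 counts per GM sample to between 6 and 69 per DM sample. Of the fat cell markers, ADIPOQ had at most 14 counts and LEP at most 3 in any sample, CIDEC and FABP4 were called higher, and the summed level was 2.22 to 3.51 CPM in GM and 6.80 to 8.16 CPM in DM samples. The brown fat marker UCP1 had at most 4 counts, while PRDM16 was called higher by 2.74. Of 3 endothelial and 3 macrophage markers, CDH5 and CD68 were called lower in DM samples, and neither list summed to more than 6.27 CPM in any sample. In such bulk samples, more cells of a type and more RNA per cell cannot be told apart, and the part of cell makeup in the results was not tested.

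To compare differentiation with proliferation, the whole gene table was fitted with the quasi-likelihood model of edgeR. A gene was called when its log2 fold change passed 1 in either direction and its Benjamini-Hochberg adjusted p-value was under 0.05. Fold changes are DM over GM, so that positive values mean higher expression in DM samples. Of the 10 genes, 6 were called, all higher in DM samples: CKM, CKMT2, AMPD1, ADSSL1, MB and PPARGC1A. Among all 15576 tested genes 25.3% were called, 15.0% higher and 10.3% lower. The other 4, CKB, AK1, FABP3 and PPARGC1B, were not called, and the 95% interval of each one's log2 fold change lay between -1 and 1. The median log2 fold change was 2.93 over the 10 genes and 0.03 over all tested genes. By the adjusted p-value alone the same 6 of 10 passed, where 63.0% of all tested genes did, and these 6 were also the ones whose GM and DM samples did not overlap, as was true of 68.8% of all tested genes. Both of these shares lie near the background and are no result about the 10 genes. The test was also limited to genes that reached an RPKM of 1 in over 50% of samples, the expression rule of the study. CKMT2, AMPD1 and PPARGC1A were then no longer tested. Of the 7 genes still tested 3 were called, against 19.0% of all genes tested under that rule.

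**Figure D1:**
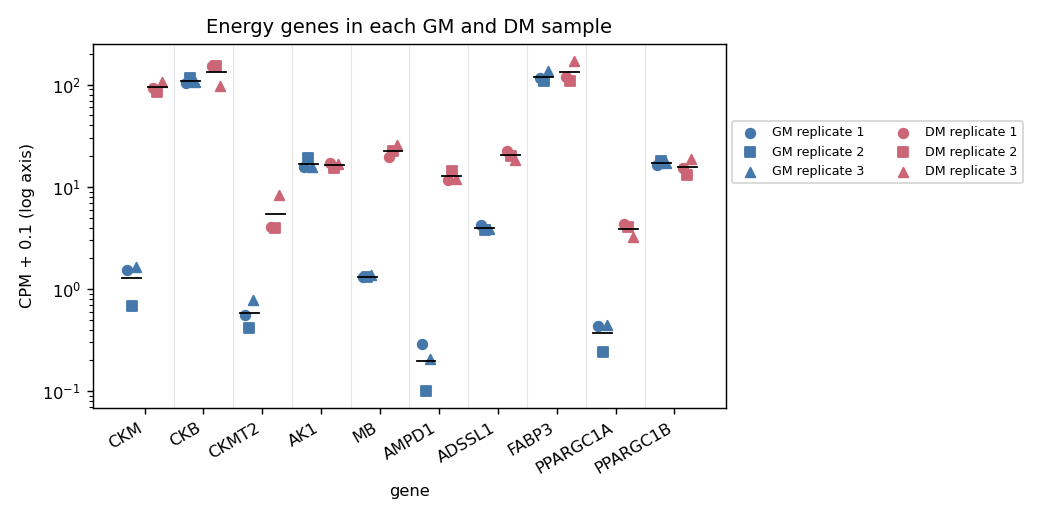
Level of each gene in each of the 6 samples, as CPM + 0.1 on a log axis, with GM samples in blue, DM samples in red and a black line at the mean of each group (n = 3). The DM samples of CKM, CKMT2, MB, AMPD1, ADSSL1 and PPARGC1A lie above all their GM samples, while those of CKB, AK1, FABP3 and PPARGC1B overlap with them.

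Among the creatine kinases, the muscle form rose steeply, the mitochondrial form rose from a very low level, and the brain form stayed abundant in both phases. CKM (ENSBTAG00000013921, chromosome 18, 53383534 to 53392948, minus strand) had 60, 24 and 59 counts in the GM samples, in order of replicate number as in all such lists here and with coordinates as the table lists them, without a build, and 3120, 3126 and 3952 counts in the DM samples. Every DM sample held far more reads than any GM sample, and GM replicate 2 was the lowest of all. Its mean level went from 1.19 ± 0.537 CPM to 94.9 ± 10.9 CPM (SD, n = 3 each), which is 6.32 on the log2 scale (standard error, SE, 0.22 and edgeR adjusted p = 6.82e-09). CKMT2 (ENSBTAG00000001003, chromosome 7, 83554315 to 83579633, plus strand) had 19, 13 and 26 counts in GM samples and 134, 141 and 304 counts in DM samples. DM replicate 3 held about as many reads as both other DM replicates together. CKMT2 rose by 3.46 on the log2 scale (SE 0.39, edgeR adjusted p = 1.84e-05), and by 3.02 without DM replicate 3. CKB (ENSBTAG00000035998, chromosome 21, 69809416 to 69812653, minus strand) had 4282, 4803 and 4030 counts in GM samples and 5087, 5628 and 3598 in DM samples. DM replicates 1 and 2 lay above the GM samples, and DM replicate 3 lay below them in CPM. CKB had a log2 fold change of 0.31 (95% interval -0.02 to 0.63, edgeR adjusted p = 0.0888), and of 0.50 without DM replicate 3 (edgeR adjusted p = 3.94e-07). With any other sample left out, the edgeR adjusted p-value of CKB was between 0.119 and 0.267. Without DM replicate 3 the adjusted p-values of the called genes also fell steeply, that of CKM to 2.17e-23 in edgeR. The low value of CKB in this setting is therefore not comparable with the others.

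The enzymes of the adenine nucleotide cycle did not move together. AMPD1, the muscle AMP deaminase that turns AMP into IMP, had 8, 0 and 4 counts in GM samples and 388, 523 and 440 in DM samples (ENSBTAG00000011548, chromosome 3, 28756908 to 28768496, plus strand). It was close to absent in GM samples and was detected at a like level in each DM sample. AMPD1 had the largest log2 fold change of the 10 genes, 6.94 (SE 0.40, edgeR adjusted p = 1.37e-07), with 0.0995 ± 0.0966 CPM in GM samples and 12.6 ± 1.52 CPM in DM samples. This value rests on few GM counts, and it was 7.87 without GM replicate 1 and 6.35 without GM replicate 2. ADSSL1, the muscle adenylosuccinate synthase that starts the return of IMP to AMP, had 173, 152 and 142 counts in GM samples and 761, 736 and 674 in DM samples (ENSBTAG00000017616, chromosome 21, 70845971 to 70861972, plus strand). The replicates of each group were close to each other, and ADSSL1 rose by 2.39 on the log2 scale, from 3.86 ± 0.276 to 20.3 ± 2.16 CPM (SE 0.12, edgeR adjusted p = 6.56e-08). AK1, the cytosolic adenylate kinase that makes ATP and AMP from ADP, had 638, 799 and 584 counts in GM samples and 578, 559 and 618 in DM samples (ENSBTAG00000006305, chromosome 11, 98552024 to 98561576, minus strand). The AK1 groups overlapped, at 16.7 ± 2.20 and 16.4 ± 0.965 CPM, and the 95% interval of the log2 fold change ran from -0.27 to 0.22.

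Of the carriers, myoglobin rose and the fatty acid carrier did not pass the test. MB (ENSBTAG00000005333, chromosome 5, 74170471 to 74181260, minus strand) had 50, 50 and 48 counts in GM samples and 656, 826 and 944 in DM samples. GM samples were nearly identical, and each DM sample was more than 10 times as high. MB levels were 1.22 ± 0.0360 CPM in proliferation and 22.5 ± 3.05 CPM in differentiation, which is 4.20 on the log2 scale (SE 0.15, edgeR adjusted p = 6.37e-09). FABP3, the heart-type fatty acid binding protein, had 4764, 4475 and 5133 counts in GM samples and 4053, 3930 and 6375 in DM samples (ENSBTAG00000016819, chromosome 2, 122723225 to 122783830, plus strand). DM replicate 3 was the highest of all samples, and DM replicates 1 and 2 lay within the range of the GM samples or just under it in CPM. Its log2 fold change was 0.16 (95% interval -0.18 to 0.50, edgeR adjusted p = 0.389). Another listed gene on the opposite strand overlaps the FABP3 interval, and the sources do not say whether counting used strand.

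Of the coactivators, PPARGC1A was called higher and PPARGC1B was not called. A test of the difference between the genes was not run. PPARGC1A, which encodes PGC-1α, a coactivator of mitochondrial and oxidative fibre genes, had 14, 6 and 13 counts in GM samples and 144, 143 and 116 in DM samples (ENSBTAG00000017024, chromosome 6, 44854113 to 44960668, minus strand). Each DM sample was above all GM samples, although even there the level was low. PPARGC1A rose by 3.77 on the log2 scale, from 0.275 ± 0.113 to 3.77 ± 0.577 CPM (SE 0.33, edgeR adjusted p = 2.83e-06). PPARGC1B, which encodes the related coactivator PGC-1β, had 677, 740 and 640 counts in GM samples and 512, 477 and 686 in DM samples (ENSBTAG00000012943, chromosome 7, 63153227 to 63182560, plus strand). Its DM samples spanned the GM range, with DM replicate 3 highest and DM replicate 2 lowest. The log2 fold change of PPARGC1B was -0.13 (95% interval -0.40 to 0.15, edgeR adjusted p = 0.404), and -0.26 without DM replicate 3 (edgeR adjusted p = 0.0297). In that setting the adjusted p-values of the called genes were also far lower, and with any other sample left out that of PPARGC1B was between 0.409 and 0.978 in edgeR.

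**Figure D2:**
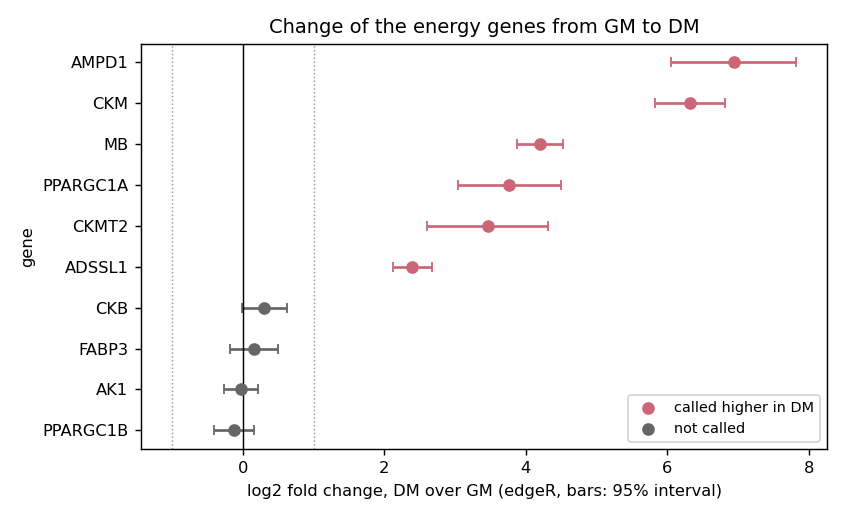
Log2 fold change of each gene, DM over GM, from edgeR, with bars for the 95% interval and dotted lines at the call threshold of -1 and 1. The 6 called genes (red) lie between 2.39 and 6.94, and the 4 others (grey) between -0.13 and 0.31, with intervals that include 0.

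DM replicate 3, with the highest contractile level, was not uniformly high for these genes. It was the highest DM sample in CPM for CKM, CKMT2, MB, FABP3 and PPARGC1B, and the lowest for CKB, ADSSL1 and PPARGC1A. GM replicate 2, with the lowest contractile level, was the lowest GM sample for CKM, CKMT2, AMPD1 and PPARGC1A, but also for ADSSL1, MB and FABP3, and the highest for CKB, AK1 and PPARGC1B. To set the genes beside the contractile programme of the same libraries, their counts were divided by the summed counts of the 17 contractile genes. Relative to this sum, the log2 ratio of CKM was higher in DM samples by 3.67, that of AMPD1 by 4.81, that of MB by 1.43, that of PPARGC1A by 1.05 and that of CKMT2 by 0.65, each without overlap of GM and DM samples. For ADSSL1 the ratio changed by -0.36 and the groups overlapped. For CKB, AK1, FABP3 and PPARGC1B the change of the ratio was -2.48, -2.77, -2.62 and -2.89, again without overlap. These 4 genes were not called, and the sum that divides every gene was itself higher in each DM sample. Their lower ratios therefore restate the rise of the sum and are no result about these genes. An exact two-sided permutation test gave p = 0.1 for each of the 9 genes without overlap, the smallest value that 3 samples against 3 allow, and 0.111 after adjustment over 10 genes. None of these ratios could therefore reach an adjusted p-value under 0.05. The values depended on the reference. TPM2, which rose by only 0.92 on the log2 scale and was not called, was the largest part of the sum in GM samples, at 756 ± 34.2 CPM. The median log2 fold change of the 17 contractile genes was 4.16. CKM (6.32) and AMPD1 (6.94) rose by more than this median and MB (4.20) by about as much. PPARGC1A (3.77), CKMT2 (3.46) and ADSSL1 (2.39) rose by less, so a positive ratio to the sum does not show a rise above the typical contractile gene. Against DES alone, which encodes desmin and was not called, the ratio was higher by 6.58 for CKM, 7.72 for AMPD1, 4.34 for MB, 3.96 for PPARGC1A, 3.56 for CKMT2 and 2.55 for ADSSL1, and the sign turned for ADSSL1 and for the 4 uncalled genes.

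Levels of different genes were compared as RPKM, which the authors scaled by gene length and library total. In GM samples the order from the highest was FABP3 (180 ± 21.9 RPKM), CKB (78.1 ± 4.41), AK1 (20.8 ± 2.70), PPARGC1B (5.40 ± 0.222), ADSSL1 (2.69 ± 0.199), MB (1.17 ± 0.0345), CKM (0.788 ± 0.355), CKMT2 (0.342 ± 0.133), AMPD1 (0.0553 ± 0.0538) and PPARGC1A (0.0440 ± 0.0182 RPKM; SD, n = 3). In this order CKM and CKMT2 overlapped between samples, as did AMPD1 and PPARGC1A. FABP3 and CKB stood at the top in proliferation, and CKM, CKMT2 and AMPD1 near the bottom. In DM samples FABP3 (188 ± 48.8 RPKM) still led, followed by CKB (90.2 ± 21.4), CKM (58.5 ± 6.64), MB (20.1 ± 2.93), AK1 (19.1 ± 0.835), ADSSL1 (13.2 ± 1.26), AMPD1 (6.52 ± 0.894), PPARGC1B (4.62 ± 0.813), CKMT2 (3.52 ± 1.65) and PPARGC1A (0.564 ± 0.0822 RPKM). CKB and CKM overlapped here, and so did MB and AK1, and PPARGC1B and CKMT2. The rank of CKM rose, and its mean RPKM exceeded that of 22.1% of tested genes in GM samples and 90.8% in DM samples. PPARGC1A remained the lowest of the 10 in both phases, above 17.8% of tested genes in DM samples.

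The balance between paralogues was followed as the share of a family's summed RPKM in each sample. Of the sum of CKM and CKB, CKM held 1.27, 0.455 and 1.32% in the GM samples, and 36.0, 33.7 and 50.1% in the DM samples. DM replicate 3, where CKB was low and CKM high, was the one sample with as much CKM as CKB. AMPD1 held 0.107 ± 0.103% of the sum of AMPD1, AMPD2 and AMPD3 in GM samples and 19.1 ± 2.72% in DM samples (SD, n = 3). AMPD3, the form first described in red blood cells, fell at the same time by 2.29 on the log2 scale, from 19.9 ± 1.28 to 3.81 ± 2.01 RPKM, with 444, 498 and 149 counts in DM replicates 1, 2 and 3. AMPD2, the broadly expressed form, stayed the most abundant AMP deaminase, at 31.8 ± 1.74 and 23.9 ± 3.09 RPKM. ADSSL1 took 11.3 ± 0.807% of the sum with ADSS, the non-muscle synthase, in GM samples and 54.5 ± 6.34% in DM samples. ADSS itself had a log2 fold change of -0.83 (SE 0.10, edgeR adjusted p = 3.72e-05) and so missed the fold threshold.

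Beside AK1, the mitochondrial adenylate kinase AK4 fell by 1.95 on the log2 scale (SE 0.13, edgeR adjusted p = 4.40e-07). AK3, which overlaps a listed gene on the opposite strand, was not called, at 13.0 ± 0.400 and 11.1 ± 0.758 RPKM (SD, n = 3), and AK5 had 103, 173 and 18 counts in DM samples. FABP3 held 96.2 ± 0.902% of the summed RPKM of FABP3, FABP4 and FABP5 in GM samples and 98.1 ± 0.708% in DM samples. The fat cell form FABP4 was at the detection limit in GM samples, with at most 1 count each, while DM samples held 15, 16 and 13 counts, at least 5.51-fold higher. This limit of 3 counts per library covers counting error only. PPARGC1A held 0.817 ± 0.355% of the sum with PPARGC1B in GM samples and 11.1 ± 2.86% in DM samples, so that PPARGC1B was the more abundant of this pair in both phases. Each of these shares was higher in every DM sample than in any GM sample, with an exact two-sided permutation p = 0.1 before and after adjustment over the 6 shares computed, the smallest that this design can give.

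**Figure D3:**
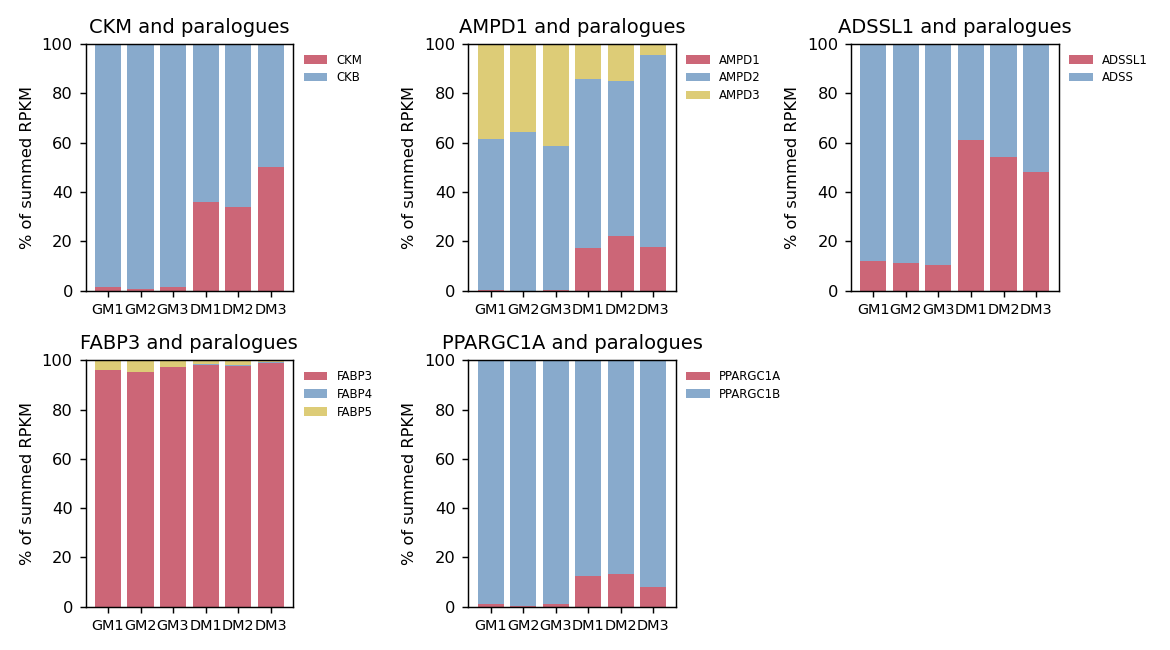
Share of the summed RPKM of 5 paralogue families held by each gene, in percent, for each GM and DM sample, with one bar per sample and the gene described here in red at the bottom. CKM, AMPD1, ADSSL1 and PPARGC1A take up larger shares in all DM samples, while FABP3 holds over 95% throughout.

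In the table of mRNA transcripts the 10 genes have 11 rows. For 9 genes the single transcript has exactly the counts of its gene, so it adds no evidence of its own. PPARGC1A has 2 listed transcripts of 6325 and 3912 bases, whose counts together exceed those of the gene, which shows that reads were counted for both. The longer one (ENSBTAT00000022636) had 14, 6 and 13 counts in GM samples and 144, 143 and 115 in DM samples, and the shorter one (ENSBTAT00000055094) had 8, 3 and 10 and then 101, 97 and 70. Both were called higher, the longer by 3.74 (SE 0.33, edgeR adjusted p = 2.38e-06) and the shorter by 3.80 (SE 0.41, edgeR adjusted p = 1.25e-05). Of the 11 transcripts 7 were called, all higher, against 25.6% of 16352 tested mRNAs.

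Genes of the same pathways were compared as 4 lists drawn up by function, in which 107 of 129 entries are listed by symbol and 101 were tested. In all, 25 of them were called, 16 higher and 9 lower, which is a share close to the 25.3% of all tested genes. Of the 2 listed genes of creatine synthesis, GATM, which makes the creatine precursor guanidinoacetate, rose by 2.36 on the log2 scale (SE 0.13, edgeR adjusted p = 1.28e-07), from 9.30 ± 0.923 to 47.6 ± 8.51 CPM. GAMT, which methylates that precursor to creatine, lay just under the fold threshold at 0.95 (12.6 ± 1.44 CPM in GM and 24.3 ± 4.07 CPM in DM samples).

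Of 21 tested genes of the adenine nucleotide cycle, 2 were called higher and 4 lower, and the median over the list was -0.48 on the log2 scale. Besides AMPD3 and AK4, PFAS, an enzyme of purine synthesis, fell by 1.83 and IMPDH1, which directs IMP to guanine nucleotides, fell by 1.19. The call of IMPDH1 was lost without DM replicate 3, at -0.89. XDH, the xanthine dehydrogenase that degrades purines to uric acid, rose by 2.51 from 184 ± 1.67 to 1048 ± 51.4 CPM, and AK8 rose by 2.01. Of the 21 genes, 15 had negative log2 fold changes, against 48.7% of all tested genes, and 13 of them had an adjusted p-value under 0.05, against 31.4% of all tested genes.

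Of 35 tested genes of oxygen and fatty acid handling, 6 were called, 5 higher and 1 lower, with a median of 0.08. CPT2, which completes the import of fatty acids into mitochondria, rose by 1.57 (SE 0.08, edgeR adjusted p = 6.20e-08), from 27.4 ± 0.833 to 81.6 ± 7.32 CPM, and ACSL5, which activates fatty acids, rose by 1.24. The skin-type carrier FABP5 fell by 1.26. ACACB, the acetyl-CoA carboxylase that checks fatty acid oxidation, was called higher by 2.67, although the DM samples held 1265, 1124 and 147 counts and each GM sample between 129 and 179, so that DM replicate 3 lay within the GM range of counts. The brain-type carrier FABP7 was called higher by 2.52 from 45, 26 and 181 counts in DM samples against 9 to 25 per GM sample, and by 1.34 without DM replicate 3. CYGB, the cytoglobin gene related to myoglobin, went from 12.8 to 24.3 CPM and missed the fold threshold at 0.92.

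Of 43 tested partners and targets of the PGC-1 coactivators, 12 were called, 8 higher and 4 lower, with a median of -0.12. This share of 27.9% is near that of all tested genes. MEF2C, a muscle transcription factor, rose by 4.02, MAPK11 and MAPK12, p38 kinases, rose by 3.16 and 2.22, and PRKAG3, the muscle subunit of AMP-activated kinase, rose by 2.79, from 1.15 ± 0.221 to 7.95 ± 1.52 CPM. Related factors and kinases of the list were not called, among them MEF2A (0.45), MEF2D (-0.21), MAPK14 (0.40), PRKAA1 (0.22), CREB1 (0.16), ATF2 (0.50) and SIRT1 (-0.62). MEF2A, MEF2D, PRKAA1, ATF2 and SIRT1 had adjusted p-values under 0.05 and missed only the fold threshold, while CREB1 did not pass by p-value (edgeR adjusted p = 0.234). SIRT3, a mitochondrial deacetylase, rose by 1.09, a call that was lost without the TMM factors. POLRMT, the mitochondrial RNA polymerase, fell by 1.35 (SE 0.07, edgeR adjusted p = 5.87e-08), from 128 ± 5.19 to 50.4 ± 2.87 CPM. TFAM, the packaging factor of mitochondrial DNA, had a log2 fold change of -0.10 and was not called (edgeR adjusted p = 0.364). NRF1, a factor that drives nuclear genes for mitochondria, went from 16.8 ± 0.439 to 8.68 ± 1.43 CPM without overlap. At -0.96 it missed only the fold threshold (edgeR adjusted p = 6.00e-05). PPRC1, the remaining PGC-1 family gene, was called lower by 1.09, from 158 ± 6.36 to 74.4 ± 10.4 CPM. TFAM, NRF1, PPRC1 and the uncalled factors and kinases were named after their values were seen.

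**Figure D4:**
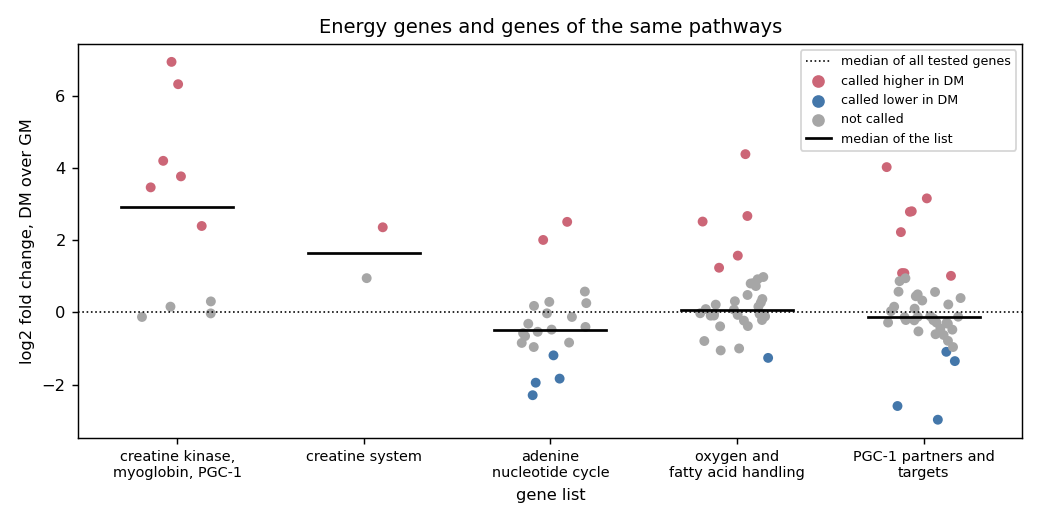
Log2 fold change, DM over GM, of each tested gene (points) for the 10 genes and for the 4 lists of pathway genes, with a black line at the median of each list and a dotted line at the median of all tested genes (0.03). The 10 genes have a median of 2.93, while the longer lists have medians between -0.48 and 0.08 and hold calls in both directions.

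Genes with the most similar pattern were sought by Pearson's r of log2 CPM over the 6 samples, among 10815 other genes with a symbol and a mean of at least 1 CPM. Closest to CKM were OXT (0.9998), OGT (0.9991) and LONP2 (0.9990), closest to MB were CLCC1 (0.9997), TXNIP (0.9997) and PKD2 (0.9996), and closest to PPARGC1A were BMF (0.9991), ARHGAP4 (0.9987) and PPP1R12A (0.9986). With 3 samples in each of 2 separate groups, r mostly reflects the step from GM to DM, and 386, 560 and 171 genes exceeded 0.99 for CKM, MB and PPARGC1A. The size of the step differed widely among them, from a log2 fold change of 0.43 for PPP1R12A to 4.72 for ARHGAP4.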

How the data were processed

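PolyA-selected RNA of 3 GM and 3 DM samples was sequenced by the authors. The deposited tables hold raw counts per gene and per mRNA, which the authors did not normalize. The methods name HISAT2 for alignment, and the counter is not given in the sources used here. The deposited RPKM values were scaled by the authors by listed transcript length and by the total counts of the sample. The methods name the buffalo genome, while the submitters' processing notes name Bowtie 0.12.2 and mouse builds. The tables list cattle Ensembl identifiers with no build. Coordinates are therefore those of the tables, and which alignment gave the counts is not known. The authors' lists of differential features, with fold changes, p-values and q-values, and the ncRNA table were not used.

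Features with at least 10 counts in total were tested in R 4.3.3 with edgeR 4.0.16 (TMM, glmQLFit, glmQLFTest), GM and DM samples alone, Benjamini-Hochberg adjusted over each whole table. Standard errors came from the F statistic. The fit was tested on simulated data. The share of AK1 among its paralogues is not reported here. Shares, and ratios with 0.5 counts added to the gene, were compared by an exact permutation test in Python 3.11.15 with scipy 1.17.1. Same-numbered GM and DM samples did not deviate together (r from -0.02 to -0.01), so samples were not paired. Alternatives were DESeq2 1.42.0, other normalizations, filters and thresholds, a replicate block and each sample left out. The genes, lists, tests and alternatives were chosen with earlier results of these data known. Named were the 10 genes, their paralogues, the cell type markers, in each list at most 6 called genes of at least 1 CPM with the largest changes, and the 3 genes most like CKM, MB and PPARGC1A.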

Additional observations from a re-analysis of the deposited data

How the results depend on the processing

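The number of these 10 genes called was 6 under each alternative (DESeq2, library size alone, size factors, no filter, filterByExpr, calls by p-value alone, glmTreat with a 2-fold minimum, a replicate block, each sample left out) but one: with the RPKM rule 3 of 7 tested genes were called, since CKMT2, AMPD1 and PPARGC1A, which are low in GM samples, were not tested; 19.0% of all genes were called under that rule, and 14.7% with glmTreat. The range was 6 to 6 with each sample left out. With the replicate block 6 genes, 7 transcripts and 25 pathway genes were called; it changed no call among the 10 genes. Pathway calls numbered 24 to 26 over library size alone, DESeq2, the block and each sample left out. Of the pathway genes named by rule, IMPDH1, FABP5, FABP7 and SIRT3 lost their call in glmTreat, and AK8, ACACB, FABP7 and PRKAG3 with the RPKM rule. All 6 called genes kept their direction throughout, and signs turned only for uncalled genes: AK1 at 0.0300 with the RPKM rule and at -0.0816 to 0.0878 with each sample left out (positive without GM replicate 2 and without DM replicate 2), FABP3 at -0.0608 to 0.309 (negative without DM replicate 3), and PPARGC1B at -0.263 to 0.00395 (positive without DM replicate 2). CKB, never called, had an adjusted p of 0.0350 from DESeq2, 0.0440 with the block and 0.0470 with the RPKM rule. With DES in place of the contractile sum, the ratios of CKB (0.436), AK1 (0.140), ADSSL1 (2.55), FABP3 (0.296) and PPARGC1B (0.0197) turned positive, since DES, unlike the contractile genes, was not higher in DM samples. The paralogue shares kept their direction with counts and with each sample left out, but with counts in place of RPKM the rise in share went from 18.96 to 11.05 percentage points for AMPD1 and from 10.3 to 18.2 for PPARGC1A. The low counts of AMPD1 and PPARGC1A in GM samples limit the precision of their fold changes.
The ratio of AMPD1 to the contractile sum ranged from 3.75 to 5.54 with each sample left out.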

Other observations

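Several genes of the same pathways were set apart in DM replicate 3. The counts of AMPD3 were 444, 498 and 149 in DM replicates 1, 2 and 3, those of AK5 were 103, 173 and 18, those of IMPDH1 were 437, 372 and 194, and those of ACACB were 1265, 1124 and 147. In the same library CKMT2 (304 counts against 134 and 141), FABP7 (181 against 45 and 26) and MEF2C (3768 against 1912 and 2468) were highest. PERM1, a muscle regulator linked to the PGC-1 pathway, had 14, 19 and 14 counts in GM samples and 2, 2 and 1 in DM samples. It was called lower while PPARGC1A was called higher. PERM1 was low in both groups and at the detection limit in DM samples, at least 4.62-fold lower. The cause of these differences was not tested. These genes were named after their values were seen.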
